A study of Zea mays with 45 samples.

Results

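Confite and Mishca are maize landraces of the Andes, grown at high altitude, where sunlight carries more ultraviolet-B (UV-B) radiation. The arrays described here set leaf RNA of plants under supplemental UV-B, given by lamps, against leaf RNA of plants of the same landrace under solar UV-B. They were chosen as the columns whose titles name Confite or Mishca leaves under supplemental or supplementary UV-B, which gave 4 of the 45 samples of the series, in a table of 33 columns. The 2 Mishca columns held equal values under opposite channel labels and were counted once, so 3 distinct arrays remained, 2 of Confite and 1 of Mishca.

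The study grew the inbred line W23 and 5 landraces outdoors at Stanford in summer, under cellulose acetate sheeting that passes UV-B, under polyester that removes it, or with added UV-B lamps. Besides Confite and Mishca, supplemental UV-B was set against solar UV-B in the Mexican landraces Arrocillo, Cacahuacintle and Conico (6 columns, 4 distinct arrays) and in W23, whose titles name a stock with b and pl alleles. Solar UV-B reached the plants of every group here, so no value below compares with plants kept from UV-B. The labels do not say how many plants gave RNA to an array, nor that the 2 Confite arrays hold RNA of different plants, and a landrace is a mixed population.

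UV-B is absorbed by nucleic acids, proteins and membranes, and in plants it acts both as a signal and as a stress. Known leaf responses include synthesis of flavonoids and other phenylpropanoids that screen UV-B, DNA repair, detoxification of reactive oxygen, and jasmonate and wound signalling. Genes of photosynthesis are often repressed under strong UV-B. The gene lists below follow these processes.

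Each array gave 1 log2 ratio per spot, read in 2 colours, for 5640 probes of which 399 had 1 gene name. The first Confite array carried the supplemental RNA in channel 1 and the second carried it in channel 2. Which of the pair is the numerator is not stated in the labels. A positive or negative value below is the sign as deposited, and it does not say which leaves held more RNA. Deposited medians were 0.61 and 0.05 on the Confite arrays and -0.37 on the Mishca array, and every array was centred on its median before use. Whether the authors had scaled or centred the values is not given in the sources used here. A ratio gives no level, so leaf identity could not be checked from marker levels.

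The 3 arrays differed in spread. The SD of deposited spot values was 0.30 and 0.41 on the Confite arrays and 0.66 on the Mishca array, and 10.8%, 5.5% and 6.7% of their spots were blank. After centring, 9.59% and 17.7% of tested probes lay more than 0.5 from zero on the first and second Confite array, against 42.6% on the Mishca array. Spots of the same probe differed little, with a median SD of 0.026 and 0.028 on the Confite arrays and 0.034 on the Mishca array.

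The arrays did not rank the probes alike. Across probes, the first and second Confite arrays correlated at r = -0.11, and at 0.13 once each of 16 sections of the array was centred on its own median. The Mishca array correlated with the second Confite array at r = 0.77 and with the first at -0.37 (0.76 and -0.29 with sections centred). Probes are not independent replicates, and the points share array design and spot position. The Mishca values followed the difference of the Confite arrays (second minus first, r = 0.80) more closely than their mean (r = 0.42). Both Confite arrays put 43.7% of the tested probes on the same side, and all 3 arrays put 32.5% there. The plot of probe values on pairs of arrays shows these patterns.

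**Figure D1:**
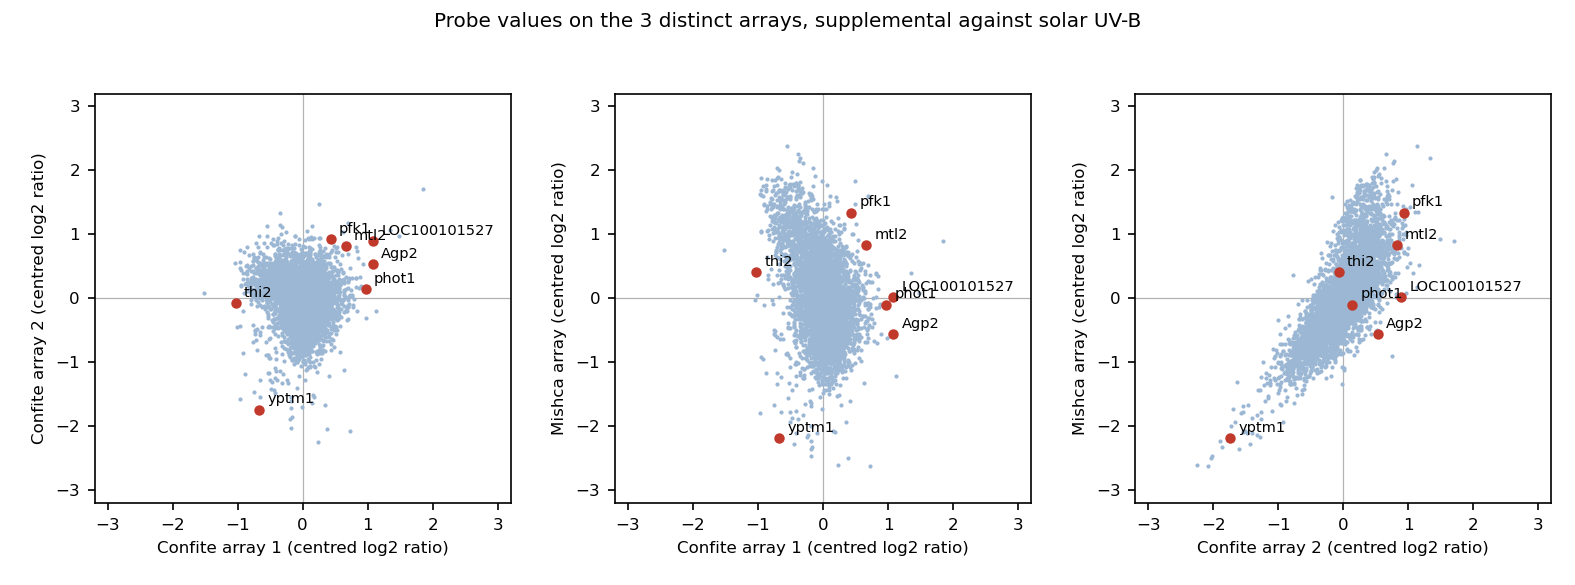
Centred log2 ratios of the 4744 tested probes on pairs of arrays: first against second Confite array (left), first Confite against Mishca (middle) and second Confite against Mishca (right). Red points are the named genes called in Confite. The right panel has a narrow rising cloud (r = 0.77), the middle one a falling cloud (r = -0.37), and the left one neither (r = -0.11).

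In Confite, few probes stood apart from zero on both arrays. The small GTPase yptm1, of the Ypt family that directs vesicle traffic, lay furthest to the negative side among named genes. On the positive side lay the starch enzyme subunit Agp2, the metallothionein-like mtl2 and the glycolytic enzyme pfk1. The blue-light receptor phot1 was also called positive, mainly from the first array. Values of a landrace were fitted with limma over the 8 distinct arrays of the 6 lines with a term for the channel order. Of 4744 probes tested, 101 passed an adjusted p under 0.05 in Confite, which is 2.13% (36 positive, 0.759%, and 65 negative, 1.37%). Both Confite arrays lay on the same side for 93 of the 101. Among 303 named genes, 7 were called, 5 positive and 2 negative, a share near that of all probes.

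The calls in Confite rest on both of its arrays and on the channel term. Arrays were left out in a fit with the solar arrays added, which called 140 probes with every array kept. Without either array, or without the channel term, limma called 0 probes, with 549 (array 2 left out), 929 (array 1 left out) and 125 (no term) at an unadjusted p under 0.05. Turning the sign of the arrays of either channel order, as a reading in which the ratio follows the channel would need, also left 0 calls, with 508 at an unadjusted p under 0.05. For Confite both turnings are the same fit with the sign reversed, so they make a single check. Without centring, the 1436 calls split into 1405 positive and 31 negative, and with sections centred there were 597 (12.6%). With arrays scaled to equal spread there were 11 (0.232%).

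On the Confite arrays yptm1 was at -0.67 and -1.74, a mean of -1.21 ± 0.76 (SD, n = 2 arrays). Its limma SE was 0.15, without the array difference taken up by the channel term, and its adjusted p 0.000222. Both arrays lay on the negative side, the second further out, and the mean is a 2.31-fold ratio. After every array was scaled to equal spread, the mean was -1.10 and limma's adjusted p 0.031.

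LOC100101527, which has no name in the reference used, was at 1.08 and 0.89 on the Confite arrays, a mean of 0.98 ± 0.14 (SD, n = 2; limma adjusted p = 0.00091). The arrays lay close together, and the scaled mean of 1.01 also passed (limma adjusted p = 0.0323). A second probe of LOC100101527 lay on the other side, at -0.09 and -0.74, and was not called.

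Agp2, a subunit of ADP-glucose pyrophosphorylase, which makes the precursor of starch, was at 1.08 and 0.53 on the Confite arrays (mean 0.81 ± 0.39, SD, n = 2; limma adjusted p = 0.00451). The metallothionein-like mtl2, of a family that binds metals, was at 0.66 and 0.82 (mean 0.74 ± 0.11, SD, n = 2; limma adjusted p = 0.00774). The phosphofructokinase gene pfk1 was at 0.43 and 0.93 (mean 0.68 ± 0.35, SD, n = 2; limma adjusted p = 0.0129). All 3 genes lay on the positive side of both Confite arrays, and with scaled arrays their limma adjusted p was between 0.09 and 0.0997.

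Another 2 of the named calls in Confite came mainly from the first array. The phototropin gene phot1 was at 0.97 and 0.14 (limma adjusted p = 0.0446). The thiazole synthase gene thi2, of thiamine synthesis, was at -1.03 and -0.07 (limma adjusted p = 0.0477). For both genes the second array was near zero. Other probes of thi2 had Confite means of 0.00 and -0.34.

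The rest of the largest Confite values did not pass. The plasma membrane aquaporin PIP1-1 was at -0.65 and -0.52 (limma adjusted p = 0.0539), and its other probe had a mean of -0.28. The ribosomal protein gene rpl39 was at -0.62 and -0.45 (limma adjusted p = 0.0638). The bZIP factor GBF1, which binds the G-box, was at -0.16 and -0.75, and LOC541879 at -0.18 and -0.84. LOC542285 was at 0.35 and 0.79 (limma adjusted p = 0.052). Each of these 5 lay on 1 side of both arrays, without a call.

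In Mishca, many genes lay far from zero. Among the largest positive values were those of the receptor-like kinase ltk1, the cold-induced bZIP factor mlip15, the sucrose synthase sus2 and the glutathione synthetase gsh2. Among the largest negative ones were those of yptm1, the heat shock disaggregase hsp101 and the plastid 2-oxoglutarate/malate translocator pOMT1. Of 4744 probes, 1970 were called with limma (41.5%), 1049 positive (22.1%) and 921 negative (19.4%). The calls included 124 of the 303 named genes, 73 on the positive side and 51 on the other, again near the share of all probes.

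These counts belong to 1 array. Its p-values borrow a spread measured only on the Confite and Conico arrays, which were narrower, after the channel term took up their shared difference. When the Mishca array was scaled to the spread of the others limma called 0 probes (997 at an unadjusted p under 0.05), and without the channel term also 0 (1151 at an unadjusted p under 0.05). Without centring, the 2340 calls were 479 positive and 1861 negative. The side of a call also moved with spot position, which was not tested as a cause. The first of 8 runs of spots held 78 positive and 198 negative calls, and the eighth held 215 positive and 43 negative.

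On the Mishca array ltk1 was at 2.12 (limma SE 0.21, adjusted p = 3.05e-06), against -0.30 and 0.76 on the Confite arrays. mlip15 was at 1.81, against -0.41 and 0.58. sus2, which splits sucrose for use in the cell, was at 1.75, against -0.39 and 0.50. The first Confite array lay on the other side for all 3 genes.

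LOC542027 was at 1.71 on the Mishca array and at -0.53 and 0.43 on the Confite arrays. The polygalacturonase PG2C, which degrades pectin, was at 1.70 and at -0.47 and 0.35. gsh2, of glutathione synthesis, was at 1.60 and at -0.17 and 0.32. All 6 of the largest positive Mishca genes thus lay on the positive side of the second Confite array and on the negative side of the first.

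On the negative side, yptm1 was at -2.19 on the Mishca array (limma SE 0.21, adjusted p = 2.49e-06), a 4.57-fold ratio. hsp101, a chaperone that takes apart protein aggregates, was at -1.51 in Mishca and at 0.25 and -0.71 on the Confite arrays. pOMT1 was at -1.24 in Mishca and at 0.12 and -0.60 on the Confite arrays. Only yptm1 and por of the 6 lay on the negative side of all 3 arrays, and por, at -1.15, was at -0.36 and -0.37 in Confite.

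The glutathione S-transferase gst2 was at -1.07 in Mishca and at 0.18 and -0.48 on the Confite arrays. The phosphohexose isomerase phi1, of glycolysis, was at -1.07 in Mishca and at 0.35 and -0.17 on the Confite arrays. Other probes of phi1 were at -0.16 and -0.44 in Mishca. Scaled to the common spread, the Mishca values of ltk1 and yptm1 were 1.07 and -1.11, and the lowest limma adjusted p among the named genes was 0.164.

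**Figure D2:**
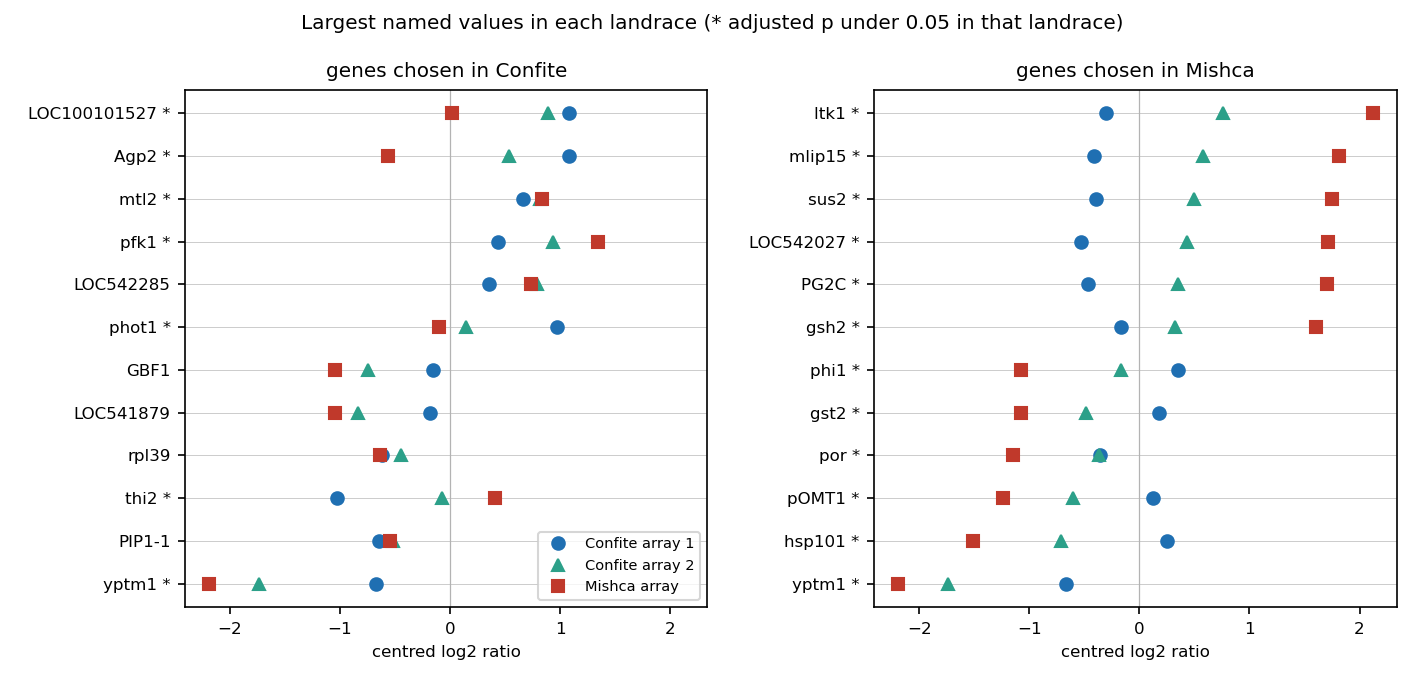
Centred log2 ratios of the genes with the largest values in Confite (left) and in Mishca (right), on the first Confite array (circles), the second Confite array (triangles) and the Mishca array (squares). Stars mark an adjusted p under 0.05 in the landrace that chose the gene. For ltk1 the Mishca array is at 2.12 and the Confite arrays at -0.30 and 0.76, while for mtl2 the 3 arrays lie between 0.66 and 0.83.

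A few genes were large on all 3 arrays. More than 0.5 on the positive side of every array lay 8 of 4744 probes (0.169%), and mtl2 was the only named gene among them, at 0.66 and 0.82 in Confite and 0.83 in Mishca. More than 0.5 on the negative side lay 20 probes (0.422%), with 2 named genes, yptm1 and PIP1-1. PIP1-1 was at -0.55 in Mishca and not called there (limma adjusted p = 0.0526). Of the 101 probes called in Confite, 75 were also called in Mishca (74.3% of the Confite calls and 3.81% of the Mishca calls), 72 of them on the same side. Over all tested probes 41.5% were called in Mishca and 2.13% in Confite. Both sets of calls use the same spread per probe, so they are not independent. Of the 1970 Mishca calls, the second Confite array lay on the same side for 1857 and the first for 599. Across probes, called or not, these arrays correlated with the Mishca array at r = 0.77 and -0.37.

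Genes of the flavonoid and phenylpropanoid pathway were not called in Confite, and 3 of 6 probes were called in Mishca, in both directions, where 41.5% of all probes were called. PAL1, phenylalanine ammonia-lyase, which opens the pathway, was at -0.07 and 0.31 in Confite and at 0.59 in Mishca (limma adjusted p = 0.0284 in Mishca). myb31, a MYB repressor of lignin genes, was at 0.33 and -0.50 in Confite and at -0.84 in Mishca (limma adjusted p = 0.00348). The lignin enzyme CCR had 2 probes on opposite sides in Mishca, at -0.69 (called) and 0.18. With sections centred the first was at -0.11 and not called (limma adjusted p = 0.59). The 4-coumarate:CoA ligase 4CL and the laccase LAC1 were at -0.01 and 0.03 in Mishca. The median of the 6 probes was -0.06 in Confite and 0.01 in Mishca, against -0.02 and -0.01 over all tested probes. On the first and second Confite array the list median was 0.12 and -0.09. With sections centred PAL1 was not called in Mishca (0.30, limma adjusted p = 0.111), whereas 4CL was (0.57, limma adjusted p = 0.00341).

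Defence, wound and jasmonate genes were not called in Confite (0 of 12 probes). In Mishca 6 of the 12 were called positive and 1 negative, and the median was 0.49. aos1, allene oxide synthase of jasmonate synthesis, was at -0.11 and 0.85 in Confite and at 1.22 in Mishca (limma adjusted p = 0.000138 in Mishca). opr6, a later reductase of that route, was at -0.28 and 0.17 in Confite and at 0.86 in Mishca (limma adjusted p = 0.00253). The cystatin psei3, which inhibits cysteine proteases, was at -0.34 and 0.35 in Confite and at 1.34 in Mishca. The hypersensitive-induced gene hir1 was at 0.15 and 0.77 in Confite and at 1.17 in Mishca, but its other probe was at -0.01. The positive calls came from the array on which 22.1% of all probes were called positive. With sections centred 8 of the 12 were called positive in Mishca and 0 negative, where 24.6% of all probes were called positive. In Confite 2 were then called positive, where 5.48% of all probes were.

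Abscisic acid, cold and drought genes had the highest list median in Mishca, 1.09 over 5 probes, with 4 called positive and 1 negative, against 22.1% and 19.4% of all probes. Its median in Confite was -0.03, with no call, but the list median was -0.36 on the first Confite array and 0.38 on the second. The stress- and ripening-induced asr1 was at -0.76 and 0.70 in Confite and at 1.09 in Mishca. dbf1, which binds the drought-response element, was at -0.36 and 0.10 in Confite and at 1.29 in Mishca. GBF1 was the negative call, at -1.05 in Mishca. With sections centred the list median in Mishca was 0.70.

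Antioxidant and detoxification genes, which remove reactive oxygen, were called in both directions in Mishca (4 positive and 2 negative of 13 probes, against 22.1% and 19.4% of all probes) and not in Confite. gsh2 is described above. The 1-cysteine peroxiredoxin PER1 was at 0.16 and -0.65 in Confite and at -0.91 in Mishca (limma adjusted p = 0.00149). With sections centred PER1 was at -0.36 in Mishca and was not called (limma adjusted p = 0.0512). Among heat shock and disulfide isomerase genes, 3 positive and 2 negative of 11 probes were called in Mishca, a total near the 41.5% of all probes. The sulfhydryl oxidase qsox1 was at -0.20 and 0.66 in Confite and at 1.11 in Mishca. The disulfide isomerase PDIL5-4 was at 0.17 and -0.68 in Confite and at -0.87 in Mishca.

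Genes of the photosynthetic light reactions had a median of 0.16 in Confite, with no call in 8 probes, and of -0.29 in Mishca, with 2 negative calls. In Mishca 19.4% of all probes were called negative. On the first and second Confite array the list median was 0.04 and 0.31. psbs1, needed for the dissipation of excess light, was at 0.27 and 0.30 in Confite and at -0.64 in Mishca (limma adjusted p = 0.0376 in Mishca). psaN, a subunit of photosystem I, was at 0.17 and -0.07 in Confite and at -0.66 in Mishca (limma adjusted p = 0.0146). The antenna gene lhcb5 was at 0.30 and 0.39 in Confite and at -0.48 in Mishca, with no call. The antenna gene Cab-m7 was at -0.25 and 0.68 in Confite and at 0.44 in Mishca, with no call. With sections centred psaN was at -0.08 in Mishca and not called (limma adjusted p = 0.698). In that setting 4 of the 8 were called negative in Mishca, where 45.4% of all probes were then called on either side and 20.9% on the negative side.

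Carbon fixation genes had 2-array means between -0.22 and 0.31 in Confite over 10 probes, with no call. In Mishca 1 was called, on the negative side, where 19.4% of all probes were (20.9% with sections centred). The Rubisco small subunit ssu1 was at 0.03 and 0.09 in Confite and at -0.02 in Mishca. The C4 enzyme pyruvate orthophosphate dikinase, pdk1, was at 0.31 and -0.21 in Confite and at -0.47 in Mishca. The malic enzyme me2, at -0.92 in Mishca, was the only call of the list in either landrace (limma adjusted p = 0.00369). With sections centred me2 was at -0.33 in Mishca and not called (limma adjusted p = 0.0856), and the list then had 2 negative calls.

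In sucrose and hexose metabolism 1 of 17 probes was called in Confite, pfk1. In Mishca 4 were called positive and 1 negative, against 22.1% and 19.4% of all probes, and pfk1 was at 1.34 (limma adjusted p = 6.33e-05). In starch synthesis Agp2 lay on opposite sides in the 2 landraces, at 1.08 and 0.53 in Confite and at -0.56 in Mishca (limma adjusted p = 0.0347 in Mishca). With sections centred Agp2 was at -0.01 in Mishca and not called. The starch synthase du1 was at -0.13 and -0.68 in Confite and at -0.32 in Mishca, with no call.

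In translation 14 of 16 probes had a negative mean in Confite, with no call and a median of -0.16, against 2556 of 4744 over all probes. The list median was 0.01 on the first Confite array and -0.34 on the second. In Mishca 13 of 16 were negative, 4 of them called, with a median of -0.29. Over all probes 2392 of 4744 were negative there, and 19.4% were called negative. EF1A, elongation factor 1-alpha, was at -0.04 and -0.35 in Confite and at -0.74 in Mishca, and rpl39 was at -0.64 in Mishca. With sections centred EF1A was at -0.19 and rpl39 at -0.05 in Mishca, neither called, and the list median in Mishca was -0.12.

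Aquaporins were called in Mishca in both directions, 4 positive and 2 negative of 13 probes, near the 41.5% of all probes. PIP1-3, a plasma membrane channel, was at -0.46 and 0.02 in Confite and at 1.34 in Mishca. The silicon channel NIP2-1 was at 0.40 and -0.66 in Confite and at -0.99 in Mishca. In nitrogen assimilation the asparagine synthetase asn1 was at -0.47 and 0.08 in Confite and at 0.89 in Mishca, with its other probe at -0.52. The glutamine synthetase gln1 was at -0.09 and -0.43 in Confite and at -1.03 in Mishca. Close family members can hybridise to the same cDNA probe, so these values are uncertain at the level of 1 gene.

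Among 21 chromatin probes, 0 were called in Confite (2.13% of all probes), and 4 positive and 5 negative in Mishca (41.5% of all probes). The histone deacetylase Hda1 had 1 probe at 1.36 and another at -0.44 on the Mishca array. The nucleosome assembly gene nfa104 was at -0.12 and -0.53 in Confite and at -0.77 in Mishca, where with sections centred it was at -0.23 and not called (limma adjusted p = 0.234). DNA replication and cell cycle genes had no call in either landrace over 4 probes, against 2.13% of all probes in Confite and 41.5% in Mishca. The replication clamp pcna1 was at 0.20 and -0.20 in Confite and at -0.05 in Mishca.

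Signalling and light genes had 1 call in 18 probes in Confite, phot1, and 3 positive and 1 negative in Mishca, against 41.5% of all probes there. The protein phosphatase PP1 was at -0.10 and 0.33 in Confite and at 0.98 in Mishca, and the 14-3-3 gene grf1, of a family that binds phosphorylated proteins, was at 0.05 and -0.46 in Confite and at -0.91 in Mishca. With sections centred grf1 was at -0.33 in Mishca and not called (limma adjusted p = 0.0944). In the cytoskeleton, adf2, an actin depolymerising factor, was at -0.44 and 0.27 in Confite and at 1.46 in Mishca. In plastid gene expression the sigma factor sig1 was at -0.13 and -0.11 in Confite and at 0.71 in Mishca. In the cell wall the alpha-expansin expA4, which loosens walls, was at 0.15 and 0.01 in Confite and at -0.66 in Mishca (limma adjusted p = 0.0307). In lipid synthesis ACC1, acetyl-CoA carboxylase, was at 0.33 and -0.51 in Confite and at -1.06 in Mishca, with other probes at -0.12 and -0.05.

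Seed and pollen markers were included to look for genes of other organs. The list held 6 genes and did not take in the polygalacturonases PG2C and PG14, whose values are given elsewhere in the text. In Mishca 3 of 9 probes were called positive and 2 negative, and none in Confite. The pollen beta-expansin EXPB9 was at -0.56 and 0.20 in Confite and at 1.13 in Mishca, with its other probe at -0.14. The embryo globulin-1 was at 0.44 and -0.71 in Confite and at -1.04 in Mishca, with its other probe at -0.41. Over all probes 41.5% were called in Mishca, and the part of other organs in these values was not tested.

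**Figure D3:**
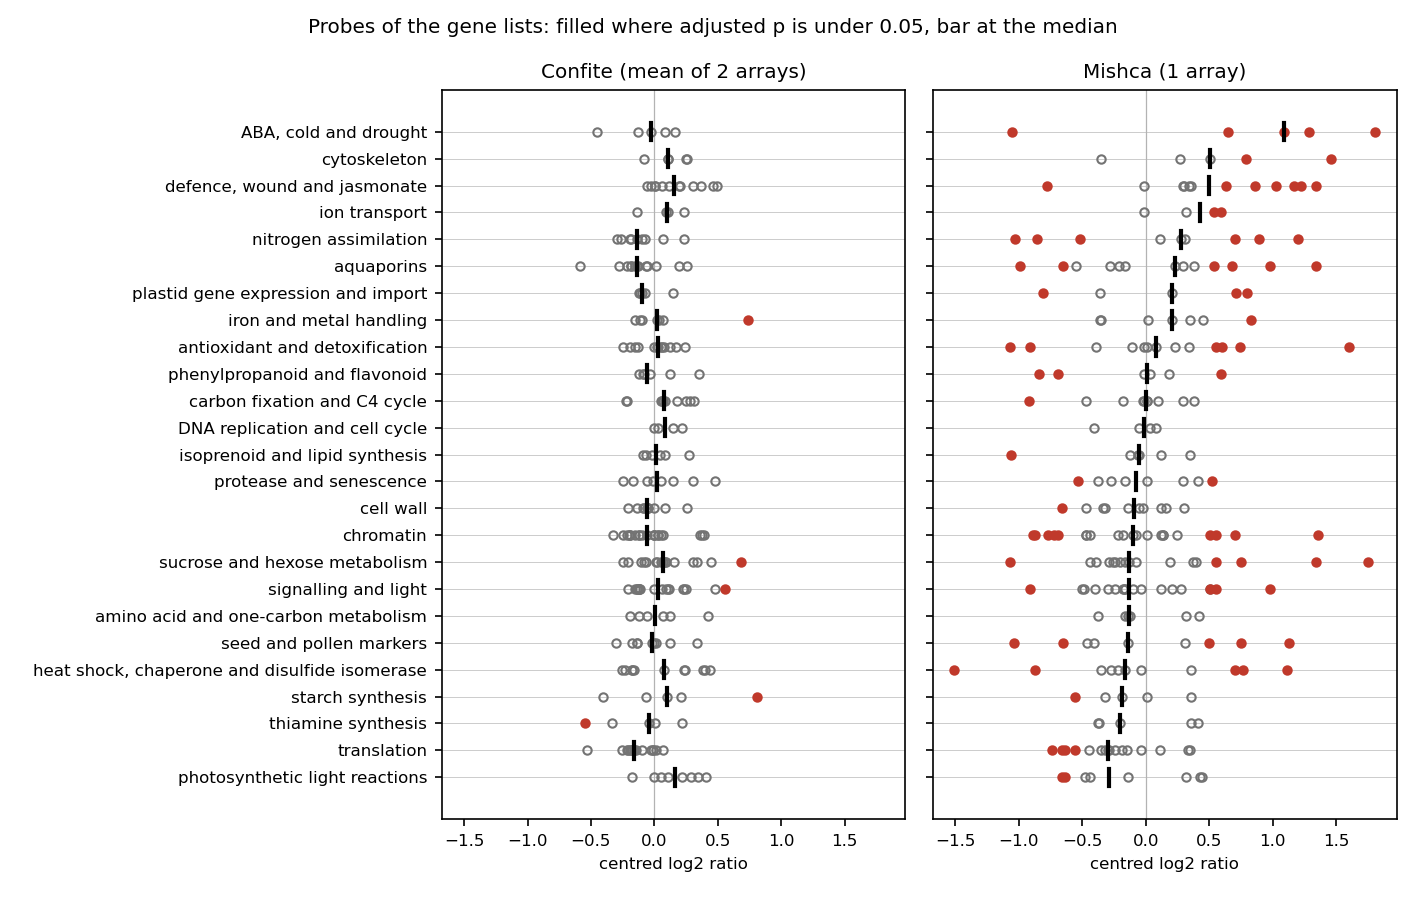
Centred log2 ratios of the probes in 25 gene lists, in Confite (left, mean of 2 arrays) and Mishca (right, 1 array). Filled points have an adjusted p under 0.05, open points do not, and bars mark the list medians, by which the lists are ordered in Mishca. Confite values cluster near zero with 5 filled points, while Mishca values spread from -1.51 to 1.81 with filled points on both sides in most lists.

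Different probes of the same gene often lay apart. Of 46 genes with several tested probes, all probes of a gene lay on 1 side for 24 genes in Confite and for 21 in Mishca. The share for probes of different genes was not computed. These counts therefore do not show that probes of the same gene lie on 1 side more often than others. The median range between probes of a gene was 0.18 in Confite and 0.60 in Mishca.

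The difference between the landraces was tested as Confite minus Mishca in the same fit. limma called 964 probes (20.3%), 314 positive (6.62%) and 650 negative (13.7%). Among the 303 named genes there were 64 calls, 22 with a positive and 42 with a negative difference. The largest negative differences were those of ltk1 (-1.89), PG14 (-1.80), LOC542027 (-1.77) and PG2C (-1.76), all high on the Mishca array. The largest positive ones were those of Agp2 (1.37), hsp101 (1.28), phi1 (1.16) and pOMT1 (1.00).

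PG14, a second polygalacturonase, was at -0.79 and 0.06 in Confite and at 1.43 in Mishca (limma adjusted p = 0.000159 for the difference). Its 4 other probes ranged from -0.41 to 0.23 in Confite and from -0.76 to 0.13 in Mishca. Agp2 was on opposite sides in the landraces, and limma's adjusted p of its difference was 0.000812. With sections centred Agp2 was at -0.01 in Mishca. For hsp101 and phi1 both Confite arrays lay above the Mishca array, with limma adjusted p of 0.00122 and 0.0036. yptm1, negative in both landraces, differed by 0.98 (limma adjusted p = 0.0113), while mtl2 differed by -0.09 (limma adjusted p = 0.829).

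The difference between the landraces changed with the scaling of the arrays. The first Confite array was left out in a fit with the solar arrays added, which called 1124 differences with every array kept. With arrays scaled to equal spread limma called 0 differences (617 at an unadjusted p under 0.05), and without the first Confite array also 0 (1116 at an unadjusted p under 0.05). With the arrays of the first channel order turned, limma again called 0 (616 at an unadjusted p under 0.05), and with those of the second order turned 1132 (459 positive and 673 negative). Without centring, the 2878 calls were 2675 positive and 203 negative.

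The Andean landraces were then set against the Mexican ones, as the mean of Confite and Mishca minus the mean of Arrocillo, Cacahuacintle and Conico. limma called 1202 probes (25.3%), 663 on the positive side (14%) and 539 on the negative side (11.4%). The 68 named genes called, among 303, were 43 positive and 25 negative. Of these, 5 had all 3 Andean arrays above the 4 Mexican arrays (LOC542285, PBF, mtl2, pfk1 and psei2) and 3 all below (du1, nfa104 and yptm1). The rule for named genes did not include psei2, which is named for this count after its values were seen. Among all tested probes, 142 (2.99%) had all Andean arrays above and 73 (1.54%) all below. The 68 genes were already called for this difference, so their counts cannot be compared with the shares of all probes.

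yptm1 was at -0.67, -1.74 and -2.19 on the Andean arrays. In the Mexican landraces it was at -0.07 in Arrocillo, 0.37 in Cacahuacintle, and 0.49 and 0.02 in Conico. The groups did not overlap, and the difference was -1.88 (limma SE 0.17, adjusted p = 2.03e-06). In W23 yptm1 was at 0.73.

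pfk1 was at 0.43, 0.93 and 1.34 on the Andean arrays. It was at 0.33 in Arrocillo, -0.09 in Cacahuacintle, and -0.87 and -0.54 in Conico. The groups did not overlap, though the lowest Andean and the highest Mexican value lay close, and the difference was 1.17 (limma SE 0.16, adjusted p = 0.000107). du1 was at -0.13, -0.68 and -0.32 on the Andean arrays, against 0.14 in Arrocillo, 0.57 in Cacahuacintle, and 1.12 and 0.02 in Conico (difference -0.79, limma adjusted p = 0.0034).

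The 4 named genes with the largest called difference on each side made 8 genes, and for the other 5 of them the arrays overlapped. aos1 was at -0.11, 0.85 and 1.22 on the Andean arrays, against -0.42, -0.28, -0.29 and 0.53 on the Mexican ones (difference 0.99, limma adjusted p = 0.000458). lbl1, an SGS3-like protein of small RNA biogenesis, was at -0.11, 0.97 and 1.39 on the Andean arrays, against -0.13, 0.02, -0.33 and 0.28 on the Mexican ones (difference 0.96, limma adjusted p = 0.000735). The first Confite array lay among the Mexican arrays for both.

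PDIL1-2, a disulfide isomerase, differed by 0.95 (limma adjusted p = 0.000592), globulin-1 by -0.86 (limma adjusted p = 0.00175) and LOC541879 by -0.81 (limma adjusted p = 0.0022). For these too the ranges of the arrays overlapped. With arrays scaled to equal spread, 42 probes were called (0.885%, 12 positive and 30 negative), and without the channel term 1 (394 at an unadjusted p under 0.05). With arrays of either channel order turned limma called 0 (541 and 1248 at an unadjusted p under 0.05 with the second and the first order turned).

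**Figure D4:**
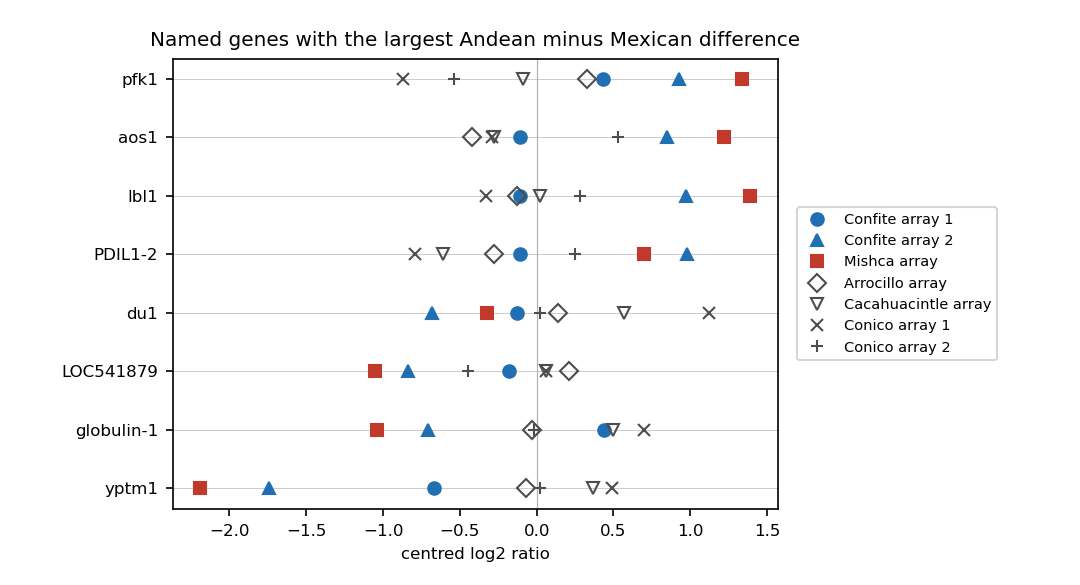
Centred log2 ratios of 8 named genes, the 4 with the largest called Andean minus Mexican difference on each side. They are shown on the 3 Andean arrays (filled symbols) and the 4 Mexican arrays (grey symbols). For yptm1 the Andean arrays lie from -2.19 to -0.67 and the Mexican arrays from -0.07 to 0.49, without overlap, while for aos1, lbl1, PDIL1-2, LOC541879 and globulin-1 the first Confite array or another lies inside the Mexican range.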

How the data were processed

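Per the labels, leaf RNA was hybridised in pairs to 2-colour maize cDNA arrays. The authors deposited 1 log2 ratio per spot. The design text describes variance models on log2 intensities, and whether these values passed through them is not given in the sources used here. The 33 columns of the table were compared, and 8 that equalled another were counted once. Mean values of the 3 spots of a probe were centred on the array median. limma 3.58.1 (R 4.3.3) was fitted over the 8 distinct supplemental arrays with a coefficient per line and a channel term (0 for repeated columns), leaving 1 residual degree of freedom, moderated, two-sided, Benjamini-Hochberg adjusted. The filter (values on 75% of the arrays or more) kept 5140 probes, and 4744 could be tested. The p-values rest on a spread from Confite and Conico alone, the mismatch of their array differences left after the channel term. Differences that both landraces share between arrays are not in it, the spread may be technical, and so few arrays limit the precision. Mishca has 0 in the channel term, so its p-values leave out any such difference. Its values followed the difference of the Confite arrays at r = 0.80. The fit was tested on simulated data.

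Named genes are, per landrace and side, the 6 largest called, filled with the largest uncalled, per contrast and side the 4 largest called, up to 3 per list, and fixed pathway genes. The probe of lowest p stands for its gene. Names come from the platform annotation and, for 314 of 329 genes, the Zm-B73-REFERENCE-NAM-5.0 annotation. Members and lists were chosen with earlier results of these data known. Alternatives are given in the closing section, and coordinates and sequences were not used.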

Additional observations from a re-analysis of the deposited data

Results flagged for a closer look

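Differences between groups under the same contrast were called by limma for 964 probes in Confite minus Mishca and for 1202 probes in the Andean mean minus the Mexican mean, which is why the following values stand here. In Confite minus Mishca, the 4 named genes with the largest called difference on the positive side were Agp2 (1.37), hsp101 (1.28), phi1 (1.16) and pOMT1 (1.00). The 4 on the negative side were ltk1 (-1.89), PG14 (-1.80), LOC542027 (-1.77) and PG2C (-1.76). Of these 8, Agp2 had both Confite arrays on the side opposite to Mishca, and none was called with arrays scaled to equal spread. With sections centred Agp2 was at -0.01 in Mishca.

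In the Andean mean minus the Mexican mean, the 4 such genes on the positive side were pfk1 (1.17), aos1 (0.99), lbl1 (0.96) and PDIL1-2 (0.95). The 4 on the negative side were yptm1 (-1.88), globulin-1 (-0.86), LOC541879 (-0.81) and du1 (-0.79). With arrays scaled to equal spread 2 of these 8 were called.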

How the results depend on the processing

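Counts of called probes are given for Confite, Mishca, Confite minus Mishca and the Andean minus the Mexican mean, in that order, and were 101, 1970, 964 and 1202 as reported. Arrays scaled to equal spread gave 11, 0, 0 and 42, and no channel term (thus also no replicate block) 0, 0, 0 and 1. Arrays of the second channel order turned gave 0, 716, 1132 and 0. Repeated columns kept as arrays gave 524, 3512, 2023 and 2677. No centring gave 1436 in Confite and 2878 in Confite minus Mishca, and sections centred gave 597 in Confite. The Confite and Mishca arrays alone, without the channel term, gave 14, 633 and 195, with no Andean minus Mexican value. Repeated columns given the order of their first label gave 1538 in Confite minus Mishca, and that of their second label 1091 in Mishca and 389 in Confite minus Mishca.

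Chosen after seeing the data, sections centred with arrays scaled gave 65, 0, 0 and 106, and sections centred with solar and supplemental arrays in one fit gave 510 in Confite. Arrays of the first channel order turned gave 0, 716, 0 and 0, and the same with sections centred 0, 598, 0 and 0. Without sections centred, the Confite and Mishca counts equal those with the second order turned by construction. The counts of 0 had between 125 and 1248 probes at an unadjusted p under 0.05 in limma.

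Leaving out Confite or Conico arrays was done in the fit with the solar arrays, since the main design then has no residual degree of freedom. Over all arrays left out, counts ranged from 0 to 125 in Confite, 1970 to 2261 in Mishca, 0 to 1308 in Confite minus Mishca and 771 to 1618 in the Andean minus Mexican contrast, the 771 without the second Confite array.

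The replicate number follows the channel order, so the replicate block stands for the channel term. It is coded from the first replicate, so Confite and Conico values are then fitted at that replicate and are not the means of their arrays. With the block, limma called 169 in Confite, 1970 in Mishca, 1538 in Confite minus Mishca and 912 in the Andean minus Mexican contrast. Deviations of same-numbered Confite and Conico arrays from their means correlated at r = 0.66 across probes, with 2 pairs only, so the numbers are not taken as pairing.

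Of 88 named values called as reported, 8 changed side under at least 1 of the settings, in 12 cases, all with arrays turned. Of the 120 uncalled ones, 83 changed side under at least 1 setting without turned arrays. With the second order turned Confite values were -0.08 for mtl2, -0.25 for pfk1 and 0.54 for yptm1. With the first order turned they were -0.28 for Agp2, -0.10 for LOC100101527, -0.42 for phot1 and 0.48 for thi2. With sections centred too they were -0.05 for Agp2, -0.10 for mtl2, -0.19 for phot1 and 0.06 for thi2, and Agp2 in Confite minus Mishca was -0.04. For Confite, turning the first order gives the values of turning the second with the sign reversed. Each Confite value therefore changes side under 1 of them by construction, and the changes cannot tell which reading holds. A signal over background could not be given, as the deposited ratios hold no intensity.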
